A study of Rattus norvegicus with 6 samples.

Results

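Brain proteoglycans and tenascins are the large matrix molecules that fill the space around neurons and glia, and their expression was examined here in dissociated spinal cord cultures grown on carbon nanotubes (CNT) or on polyornithine. The set holds 10 genes, namely the lecticans Acan, Bcan, Ncan and Vcan, the link protein gene Hapln1, the chondroitin sulfate proteoglycan genes Cspg4, Cspg5 and Ptprz1, and the tenascin genes Tnc and Tnr. The genes were chosen as known members of this matrix and found by their symbols in the array annotation. All 10 had at least 1 probe set assigned to a single gene, and together they had 19 of the 20826 such probe sets, which stand for 14217 genes. Each gene was represented by its probe set of highest mean over the 6 arrays, called its leading probe set, and its other probe sets are given beside it.

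The study asked how a carbon nanotube substrate affects spinal neurons and the networks they form. Spinal cords of rats at postnatal day P1 to P4 were dissociated, and the cells were plated on CNT-covered coverslips (3 cultures, called CNT 1, 2 and 3) or on polyornithine-covered coverslips (3 cultures, called control 1, 2 and 3). No drug or transgene is named for either group. Both were kept in the same medium, to which nerve growth factor (5 ng/mL) and horse serum (5%) had been added, and RNA was taken at 8 days in vitro. The sample labels name the Sprague-Dawley strain, whereas the study's methods name Wistar rats, and each culture was hybridized to 1 Affymetrix rat array.

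In the brain and spinal cord the lecticans bind hyaluronan through one end and tenascins through the other. Link proteins such as the product of Hapln1 hold the lectican on the hyaluronan chain, and in the condensed form of this matrix, the perineuronal net, aggrecan and tenascin-R are well known components. The chondroitin sulfate chains of these proteins are known for limiting axon growth after injury, and several of the core proteins come mainly from glia. Oligodendrocyte precursors are known for Cspg4 (NG2), astrocytes and precursors for Ptprz1 and Tnc, and fibroblasts also make Vcan and Tnc.

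The promoters of 4 genes are shown because Vcan was the gene whose groups did not overlap, its genomic neighbour Hapln1 had the largest difference between groups, and Bcan and Ncan had the widest spread between cultures. The sequences are from RefSeq on build GRCr8 and cover 250 bases before to 50 bases after the gene's start. Capitals mark matches, on either strand, to the GC box (GGGCGG), the TATA box (TATAAA) or the SOX motif (ACAAAG).
Vcan, chr2:22595906-22596205, minus strand, the first of 2 listed starts: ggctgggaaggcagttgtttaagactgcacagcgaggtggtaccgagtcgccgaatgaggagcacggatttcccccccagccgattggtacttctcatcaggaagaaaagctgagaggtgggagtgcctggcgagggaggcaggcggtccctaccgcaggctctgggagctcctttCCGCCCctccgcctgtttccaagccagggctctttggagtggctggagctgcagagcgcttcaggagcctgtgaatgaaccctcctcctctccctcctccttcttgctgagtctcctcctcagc
Hapln1, chr2:22366717-22367016, plus strand: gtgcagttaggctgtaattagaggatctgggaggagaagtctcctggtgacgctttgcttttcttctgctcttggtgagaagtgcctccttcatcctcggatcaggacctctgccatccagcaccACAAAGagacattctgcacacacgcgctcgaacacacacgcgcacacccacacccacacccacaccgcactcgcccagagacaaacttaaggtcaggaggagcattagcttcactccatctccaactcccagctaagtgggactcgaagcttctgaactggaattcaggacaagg
Bcan, chr2:175765265-175765564, minus strand: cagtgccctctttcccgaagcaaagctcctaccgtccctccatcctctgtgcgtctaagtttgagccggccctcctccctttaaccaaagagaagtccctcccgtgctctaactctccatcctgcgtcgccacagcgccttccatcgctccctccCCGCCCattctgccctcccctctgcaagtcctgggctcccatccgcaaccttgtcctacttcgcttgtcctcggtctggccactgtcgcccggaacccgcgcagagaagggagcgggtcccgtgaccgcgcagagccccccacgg
Ncan, chr16:19335657-19335956, plus strand: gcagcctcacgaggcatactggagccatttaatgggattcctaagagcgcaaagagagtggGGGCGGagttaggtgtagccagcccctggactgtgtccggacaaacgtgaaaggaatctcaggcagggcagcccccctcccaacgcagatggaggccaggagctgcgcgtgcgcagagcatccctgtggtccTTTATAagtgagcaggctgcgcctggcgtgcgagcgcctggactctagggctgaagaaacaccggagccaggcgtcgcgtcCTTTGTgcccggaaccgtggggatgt
The Vcan window held a GC box at -74 and the Bcan window one at -95, counted to the leftmost base of the match with the start site at 0. The Ncan window held a GC box at -189, a TATA box at -57 and a SOX match at 24, and the Hapln1 window held a SOX match at -125. Of 33469 rat promoter windows of the same length, 33.1% held a GC box, 14.2% a TATA box and 18.8% the SOX letters. The AP-1 (TGANTCA), NFI (TTGGC) and E box (CAGCTG) letters, held by 7.33%, 45.8% and 15.1% of all windows, were in none of these 4.

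None of the 10 genes passed the test between CNT and control cultures. In limma with Benjamini-Hochberg adjustment over 14217 genes, every member had an adjusted p of 0.999, and 0% of all genes were below the adjusted threshold of 0.05. Of the leading probe sets, 2 had a positive and 8 a negative log2 fold change (CNT minus control), with a median of -0.29, against 8318 positive and 5899 negative and a median of 0.030 over all genes. The Bcan difference, -0.020, was 0.026 when the arrays were centred on their medians. At an unadjusted p under 0.05 there was 1 member lower (Vcan) and 0 higher, where the same limit took 0.71% of all genes in the lower and 2.41% in the higher direction. This limit took 101 genes lower and 342 higher on all 6 arrays, but from 53 to 412 lower and from 153 to 670 higher with 1 array left out. Vcan was also the 1 member whose groups did not overlap, with CNT lower, which held for 2.05% of all genes, and 0 members were without overlap with CNT higher, against 5.94%.

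**Figure D1:**
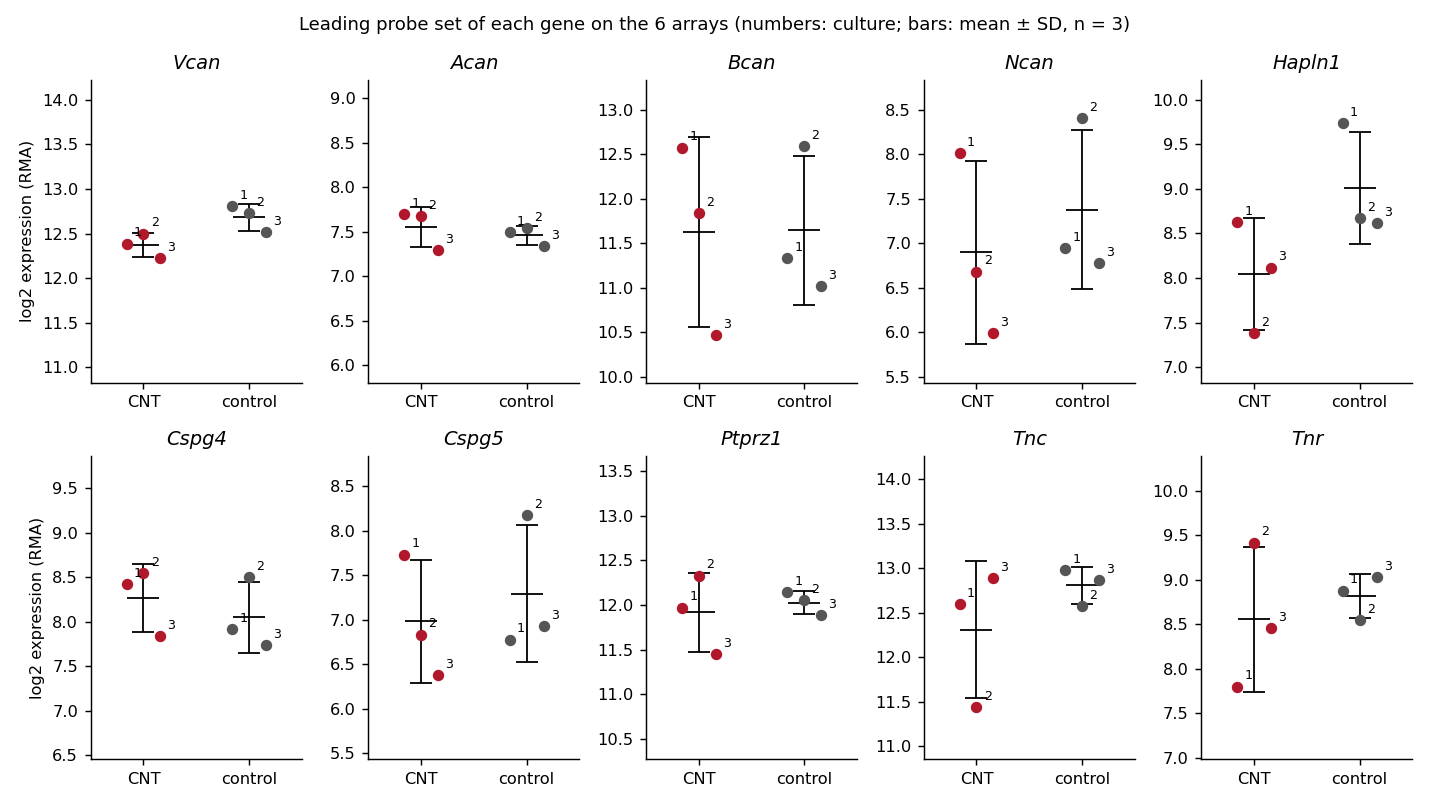
log2 expression (y axis, RMA scale) of the leading probe set of each of the 10 genes on each array, with CNT cultures in red at the left, control cultures in grey at the right, and lines for the mean ± SD (n = 3). Each panel spans the same number of log2 units from its own lower end, and Vcan is the panel in which all 3 CNT points (12.22 to 12.50) lie below all 3 control points (12.52 to 12.81).

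Vcan encodes versican, a hyaluronan-binding lectican of glia and of connective tissue. Its leading probe set (1388142_at) read 12.39, 12.50 and 12.22 log2 units in CNT cultures 1, 2 and 3, against 12.81, 12.73 and 12.52 in control cultures 1, 2 and 3. All CNT values were below all control values, and CNT 2 came close to control 3. The means were 12.37 ± 0.14 in CNT and 12.68 ± 0.15 in control cultures (SD, n = 3 each), a log2 fold change of -0.31 (95% interval -0.62 to -0.0083, limma unadjusted p = 0.0457, adjusted p = 0.999), or 0.805 of the control level. The unadjusted p was over 0.05 without CNT 1, CNT 3, control 1 or control 2 (0.129 without control 1), and without both CNT 2 and control 1 (0.105). It was also over 0.05 with quantile normalization (0.0529), with median centring (0.0885) and without the dimmest 30% of genes (0.0570). For the mean of the gene's probe sets it was 0.0172 (log2 fold change -0.40). An exact two-sided permutation test gave p = 0.1, the smallest value that 3 arrays against 3 allow. The 2 groups overlapped when the arrays were quantile normalized or centred on their medians.

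Versican RNA is spliced into forms that differ in the exons carrying the glycosaminoglycan chains, and the array holds 5 probe sets for it. Probe set 1371232_a_at, whose suffix marks probes shared by several transcripts of 1 gene, read 10.09, 10.02 and 10.13 in CNT cultures and 10.77, 10.67 and 10.43 in control cultures. Probe set 1388054_a_at, with the same suffix, read 10.03, 10.12 and 10.16 in CNT cultures and 10.73, 10.55 and 10.37 in control cultures. In both, the CNT cultures were close together and below every control culture, with log2 fold changes of -0.54 and -0.45 (limma unadjusted p = 0.00371 and 0.0101, adjusted p = 0.999 over all probe sets). Probe set 1388265_x_at, whose probes may also bind other transcripts, read 6.13, 6.09 and 6.31 in CNT cultures against 7.44, 6.71 and 6.65 in control cultures. Its log2 fold change was -0.76 (unadjusted p = 0.0160), again with no overlap. The dimmest, 1371233_at, overlapped fully, at 5.76, 5.29 and 5.28 in CNT cultures and 5.38, 5.60 and 5.15 in control cultures, with a log2 fold change of 0.061.

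Of the 19 probe sets of the set, 4 did not overlap with CNT lower, all of them for Vcan, against 2.43% of all 20826 probe sets. They read the same RNA samples, so they are repeated readings of 1 gene and not further replicates. Which spliced form each probe set reads was not determined. The annotation lists the same source sequence for 1371232_a_at, 1388265_x_at and 1371233_at, of which the last overlapped. The count stayed at 4 when any 1 array was left out, and was 3 after quantile normalization or median centring.

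**Figure D2:**
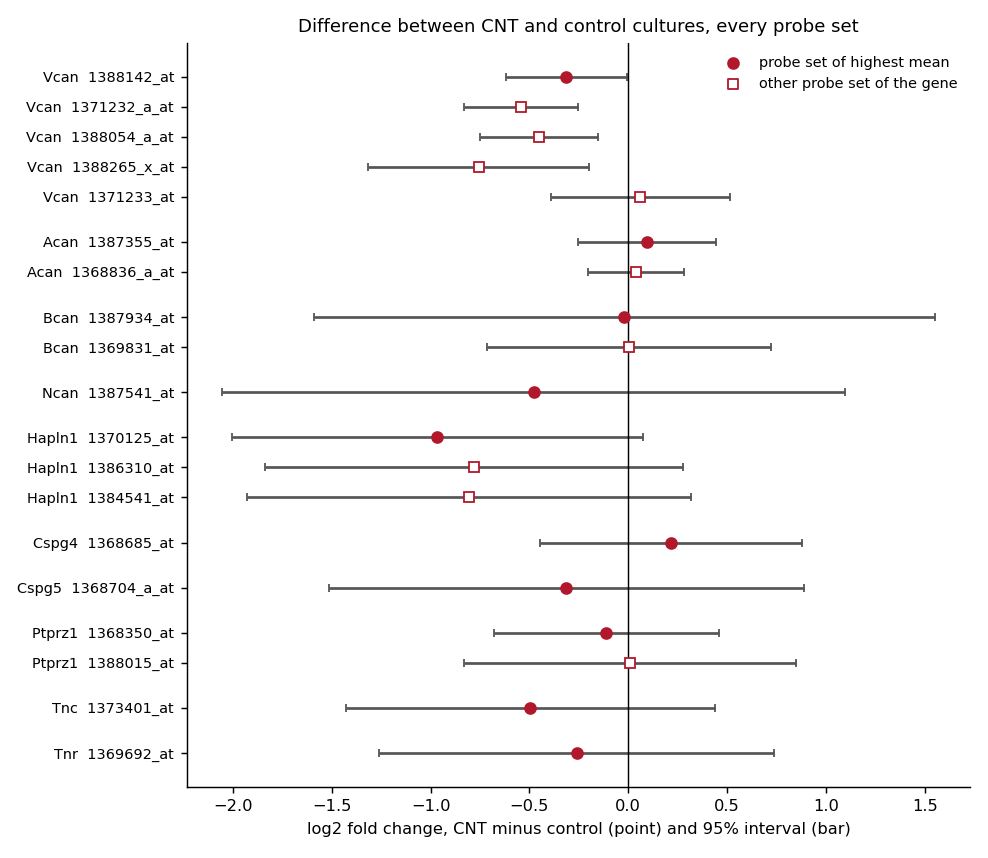
log2 fold change (CNT minus control, x axis) of all 19 probe sets, filled circles for leading and open squares for other probe sets, with bars for the 95% interval of the limma fit over all 20826 probe sets. The 4 upper Vcan intervals lie below 0, from -0.31 to -0.76 at their centres, and those of every other probe set cross 0.

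Acan encodes aggrecan, the lectican best known from cartilage and perineuronal nets. Its leading probe set read 7.69, 7.67 and 7.29 in CNT cultures and 7.49, 7.54 and 7.34 in control cultures, which overlapped. The log2 fold change was 0.10 (95% interval -0.25 to 0.44), and its second probe set gave 0.040. Acan, Ncan and Cspg5 were among the dimmest 30% of genes, those with a mean under 8.06, so their signal lies near the low end of the array. Cartilage is a known source of aggrecan, and 10 of 12 measured cartilage markers had positive log2 fold changes, with mean levels of 7.52, 7.59 and 7.20 in CNT cultures and 7.37, 7.49 and 7.25 in control cultures. Their defining collagen gene, Col2a1, lay between 5.66 and 5.89 on all arrays. Col11a1, named after its values were seen, was lower without overlap, at 11.49, 11.49 and 11.30 in CNT cultures and 12.51, 12.14 and 11.73 in control cultures (log2 fold change -0.70, limma unadjusted p = 0.0142). The part of these markers in the Acan values was not tested.

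Bcan and Ncan encode brevican and neurocan, the lecticans largely restricted to the nervous system. Bcan read 12.57, 11.84 and 10.47 in CNT cultures and 11.33, 12.59 and 11.02 in control cultures. Ncan read 8.01, 6.68 and 5.99 in CNT cultures and 6.94, 8.40 and 6.78 in control cultures. In both genes control 2 was the highest array, CNT 1 came next and CNT 3 was the lowest, so cultures of 1 group differed by more than the group means did. For Bcan the means were 11.63 ± 1.07 in CNT and 11.65 ± 0.83 in control cultures, a log2 fold change of -0.020 with a 95% interval of -1.57 to 1.53. For Ncan they were 6.90 ± 1.03 and 7.38 ± 0.89 in CNT and in control cultures, a log2 fold change of -0.48 (-2.03 to 1.08). Both intervals reach beyond 1 log2 unit on either side of 0. The second Bcan probe set ranged less widely, from 7.54 to 8.42 in CNT and from 7.74 to 8.42 in control cultures, and gave a log2 fold change of 0.0025.

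Hapln1 encodes a link protein that fastens lecticans to hyaluronan, and it had the largest difference of the 10 genes. Its leading probe set read 8.63, 7.38 and 8.12 in CNT cultures and 9.74, 8.67 and 8.62 in control cultures. CNT 1 and control 3 were almost level, which is the only overlap, and control 1 stood above the other 5 arrays. The means were 8.04 ± 0.63 in CNT and 9.01 ± 0.63 in control cultures, a log2 fold change of -0.97 (95% interval -1.99 to 0.061, limma unadjusted p = 0.0610, adjusted p = 0.999), or 0.512 of the control level. The exact permutation test gave p = 0.2. The 2 other probe sets were dim and gave -0.78 and -0.81, with control 1 at 6.40 and 6.55 and no other array above 5.14. Leaving control 1 out brought the leading probe set to a log2 fold change of -0.60. The excess of the 3' over the 5' beta-actin probe set, a sign of RNA quality, was 0.92, 2.20 and 1.72 log2 units in CNT cultures and 2.20, 0.62 and 0.66 in control cultures, and with both arrays at 2.20 removed Hapln1 was at -0.27, whereas with that excess as a covariate it was at -1.03.

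In the rat assembly GRCr8 each lectican gene lies beside a link protein gene, with 0 protein-coding genes between them: Vcan beside Hapln1 and Bcan beside Hapln2 on chromosome 2, Acan beside Hapln3 on chromosome 1, and Ncan beside Hapln4 on chromosome 16. The 3 other link protein genes were looked up after their values were seen. Hapln2, which is expressed by oligodendrocytes, read 11.04, 9.82 and 8.38 in CNT cultures and 9.44, 10.63 and 9.47 in control cultures, with CNT 3 the lowest as for Bcan. Hapln3 was highest in CNT 3 (8.69) and control 3 (8.70), whereas the other 4 arrays lay between 6.75 and 7.03. Hapln4 stayed between 8.27 and 8.54 on all 6 arrays. Their log2 fold changes were -0.10, -0.093 and 0.10, and none passed the test.

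Cspg4 encodes NG2, the surface proteoglycan of oligodendrocyte precursors and pericytes. It read 8.42, 8.55 and 7.83 in CNT cultures and 7.92, 8.50 and 7.74 in control cultures, which overlapped, with a log2 fold change of 0.22 (95% interval -0.44 to 0.87), which ran from 0.060 to 0.44 as single arrays were left out. Cspg5 encodes neuroglycan C, a membrane proteoglycan of neurons and glia. It read 7.73, 6.83 and 6.38 in CNT cultures and 6.78, 8.18 and 6.93 in control cultures, with control 2 the highest and CNT 3 the lowest array, and a log2 fold change of -0.31 (-1.50 to 0.87). Ptprz1 encodes a receptor phosphatase whose secreted form is phosphacan. It read 11.97, 12.33 and 11.45 in CNT cultures and 12.14, 12.06 and 11.88 in control cultures, so that the highest and the lowest arrays were both CNT. Its log2 fold change was -0.11 (-0.67 to 0.45), and that of its second probe set was 0.0072.

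Tnc encodes tenascin-C, a matrix glycoprotein of astrocytes, precursors and fibroblasts. It read 12.60, 11.44 and 12.89 in CNT cultures and 12.98, 12.58 and 12.86 in control cultures, where CNT 2 stood below the other 5 arrays. The means were 12.31 ± 0.77 in CNT and 12.81 ± 0.21 in control cultures, a log2 fold change of -0.50 (95% interval -1.42 to 0.43, limma unadjusted p = 0.239), and without CNT 2 it was -0.059. Tnr encodes tenascin-R, which is made by oligodendrocytes and some neurons and cross-links lecticans in perineuronal nets. It read 7.80, 9.42 and 8.46 in CNT cultures and 8.88, 8.55 and 9.03 in control cultures. The highest and the lowest arrays were again both CNT, and the log2 fold change was -0.26 (-1.25 to 0.72).

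The 10 genes did not vary together across the arrays. Genes were set against each other in pairs by the root mean square difference between their log2 values, each less its own mean over the 6 arrays. This difference is small for any pair of genes that vary little, so it is read against each gene's own root mean square deviation from its mean. Ncan and Cspg5 differed by 0.24 while deviating by 0.82 and 0.62, and Bcan, which deviated by 0.78, differed by 0.32 from Ncan and by 0.35 from Cspg5. These 3 genes therefore differed from each other by less than each moved between cultures. Hapln1 and Tnc, both lowest in CNT 2 and highest in control 1, differed by 0.46 and deviated by 0.71 and 0.52. The smallest differences were 0.19 between Acan and Ptprz1 and 0.20 between Vcan and Ptprz1. These genes had small deviations (0.15 for Acan, 0.20 for Vcan and 0.27 for Ptprz1), so the differences alone do not show whether their profiles were shared. The largest difference was between Ncan and Tnr (1.15).

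**Figure D3:**
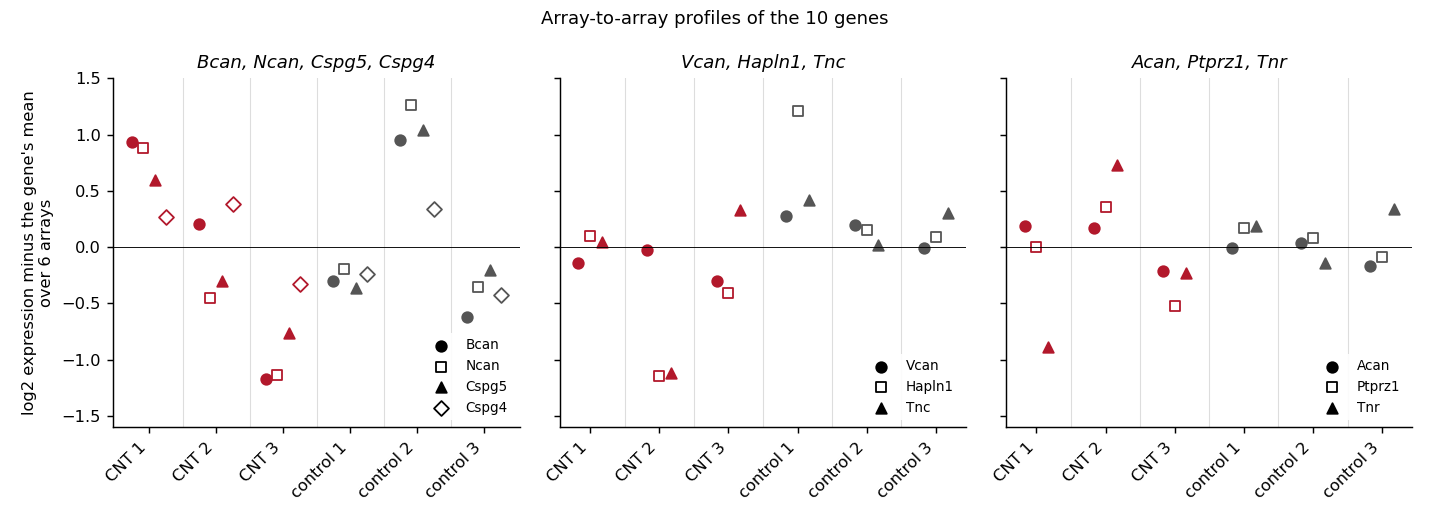
log2 expression of each gene minus its mean over 6 arrays (y axis), by array (x axis), CNT in red and control in grey, in 3 panels. In the left panel Bcan, Ncan and Cspg5 are lowest in CNT 3 and highest in control 2, and in the middle panel Hapln1 and Tnc are lowest in CNT 2.

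Markers of cell types that the cultures could hold were read on the same arrays. In this bulk RNA, fewer cells of a type and less RNA per cell cannot be told apart. The 13 fibroblast and meningeal markers had negative log2 fold changes in 13 of 13 genes (median -0.87), and their mean level was 10.77, 9.44 and 11.05 in CNT cultures and 11.46, 11.12 and 11.14 in control cultures. CNT 2, the lowest array for Hapln1 and Tnc, was also the lowest for these markers, and control 1, the highest array for both genes, was the highest. Pericyte and smooth muscle markers, 8 of 10 negative (median -0.58), read 9.14, 8.31 and 9.45 in CNT cultures and 9.85, 9.13 and 9.36 in control cultures, with the same lowest and highest arrays. Both arrays, CNT 2 and control 1, also had the highest 3' excess of beta-actin (2.20 each), so RNA quality and marker level cannot be told apart by removing them. Without both of these arrays Vcan was at -0.32, Hapln1 at -0.27 and Tnc at 0.026. The part of these markers in the differences of Vcan, Hapln1 and Tnc was not tested, and the dimmest markers of these lists averaged 7.11 (Slc22a6) and 6.16 (Rgs5), so none was listed at 0.

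Oligodendrocyte precursor markers had a mean level of 10.89, 10.99 and 10.09 in CNT cultures and 10.63, 11.10 and 10.27 in control cultures. Myelin markers read 11.98, 11.42 and 10.49 in CNT cultures and 10.89, 11.47 and 10.65 in control cultures. Both lists were lowest in CNT 3, as were Bcan, Ncan and Cspg5, and the first was highest in control 2 as these genes were. The precursor markers and Cspg4 were both higher in CNT 1, CNT 2 and control 2 than on the other arrays. What part both lists had in the spread of these genes was not tested, and the dimmest markers averaged 6.09 (Olig2) and 6.54 (Opalin). Of 8 measured neural precursor markers, 7 were negative (median -0.072), with 2 lower and 1 higher without overlap, against 2.05% and 5.94% of all genes. Their mean level was 10.31, 10.30 and 10.16 in CNT cultures and 10.48, 10.39 and 10.32 in control cultures. It was highest in control 1 and lowest in CNT 3, as was Vcan, and the dimmest marker, Sox1, averaged 4.68. The part of these markers in the Vcan, Ptprz1 and Tnc values was not tested. Astrocyte markers, 9 of 11 negative (median -0.066), lay between 11.45 in CNT 3 and 11.81 in control 1, again the lowest and highest arrays of Vcan. The part of the astrocyte markers in these values was not tested either. Neuron markers lay between 8.16 and 8.51 on all 6 arrays. The astrocyte gene Gfap lay between 13.70 and 14.38 on all arrays of these spinal cord cultures.

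For each member the 2 genes with the smallest such difference over the 6 arrays were found among all genes. For Vcan they were Cdh2 (0.0400) and Rusf1 (0.0527), for Hapln1 Arsi (0.108) and Nexn (0.175), and for Tnc Nr2f2 (0.121) and Olfml2b (0.123). For Bcan they were Dusp15 (0.151) and Casr (0.164), for Ncan C8h11orf54 (0.162) and Ddr1 (0.239), and for Cspg5 Apba2 (0.0967) and Sh3gl3 (0.0983). Each search compared 14217 genes over 6 points, and leaving out 1 array kept from 0 to 2 of the 2 genes. The neighbours of Acan (Tnfrsf17, Cacna1a), Cspg4 (Myo16, Agap2), Ptprz1 (Cyp46a1, Megf11) and Tnr (Arid3a, Efcab14) came from the same search.

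Genes that make, bind and cut these molecules were read from 5 lists, in which 0 genes passed the adjusted test. Of 25 measured genes for chondroitin sulfate synthesis, 13 were positive and 12 negative, with a median log2 fold change of 0.015, and none had an unadjusted p under 0.05 or groups without overlap. The smallest p belonged to Papss2, which makes the sulfate donor, at -0.32 (-0.17 without CNT 2 and -0.16 without control 1), and the next to Xylt2, which starts the chains, at 0.17. Papss1, of highest mean, was at -0.089. Of 25 receptors and ligands, 11 were positive and 14 negative (median -0.024). Rtn4rl2, a receptor of the Nogo receptor family, read 6.71, 6.48 and 6.90 in CNT cultures and 6.47, 6.21 and 6.34 in control cultures. Its log2 fold change was 0.36 (limma unadjusted p = 0.0444) with no overlap. Otx2, a homeobox gene whose protein binds perineuronal nets, was at 0.28, also with no overlap, and at 0.18 for the mean of its probe sets. These were the 2 genes of the list higher without overlap, against 5.94% of all genes. Both were dim, with means of 6.52 and 6.77, among the dimmest 30% of genes. Itgb1, an integrin subunit and the gene of highest mean, was at -0.055.

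Of 16 genes for hyaluronan and link proteins, 7 were positive and 9 negative (median -0.013). The smallest p belonged to Tnfaip6, which transfers inter-alpha-inhibitor heavy chains to hyaluronan, at -0.45 (limma unadjusted p = 0.0430), with values of 11.94, 11.90 and 12.16 in CNT cultures and 12.14, 12.75 and 12.45 in control cultures, where CNT 3 overlapped control 1. Averaged over its probe sets, Tnfaip6 was at -0.00089 (unadjusted p = 0.998), so its probe sets disagree. Stab1, a hyaluronan receptor of macrophages, was at -0.58. Of 12 lectican-cutting proteases and their regulators, 4 were positive and 8 negative (median -0.38). Mmp9, named after its values were seen, had the largest difference of this list, at 2.49 (limma unadjusted p = 0.115), with overlap. It read 10.63, 11.30 and 12.71 in CNT cultures and 6.81, 8.32 and 12.05 in control cultures. Mmp3, a matrix metalloproteinase, read 5.10, 4.96 and 5.47 in CNT cultures and 4.44, 4.78 and 4.35 in control cultures, a log2 fold change of 0.66 (unadjusted p = 0.0104) with no overlap, at a dim level. Adamts5, an aggrecanase, was at -0.89 (unadjusted p = 0.0694) and at -0.57 without control 1, and Adamts4, of highest mean, was at 0.10.

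The list of other proteoglycans and tenascins leaned to the negative side, with 25 of 30 genes negative and a median of -0.24, and 4 genes lower and 2 higher without overlap, against 2.05% and 5.94% of all genes. Among those lower were App, the gene of highest mean in the list, at -0.13, and Smc3, at -0.087 (limma unadjusted p = 0.393). Among those higher was Impg1, at a dim mean of 4.29. Srgn, serglycin of blood-derived cells, read 11.11, 11.33 and 11.06 in CNT cultures and 10.24, 10.15 and 10.50 in control cultures. Its log2 fold change was 0.87 (limma unadjusted p = 6.046e-04, adjusted p = 0.999). The 10 microglia and macrophage markers were positive in 10 of 10 genes, with a median of 0.29. Their mean level was 12.60, 12.62 and 12.03 in CNT cultures and 11.63, 12.45 and 12.27 in control cultures, which overlapped. These markers were lowest in control 1, whereas Srgn was lowest in control 2. Fmod, fibromodulin of fibrous tissue, read 11.25, 11.02 and 11.21 in CNT cultures and 13.07, 12.03 and 11.44 in control cultures, a log2 fold change of -1.02 (unadjusted p = 0.0412) with no overlap, and of -0.58 without control 1. The part of the microglial and fibroblast markers in these values was not tested.

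**Figure D4:**
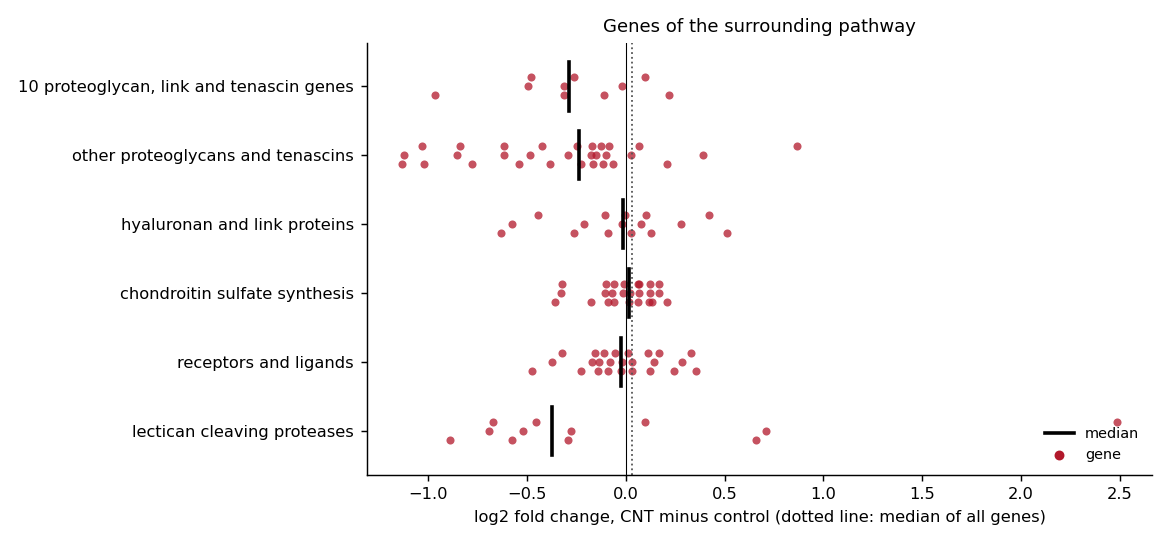
log2 fold change (CNT minus control) of every measured gene of the 10-gene set and of the 5 lists of related genes, with a black bar for the median of each list and a dotted line for the median of all genes (0.030). The medians run from -0.38 for the proteases to 0.015 for chondroitin sulfate synthesis.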

How the data were processed

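RNA of 6 cultures, 3 CNT and 3 control, was read on 1 Affymetrix array each. The authors deposited log2 expression values made with RMA, whose version is not given in the sources used here, for the manufacturer's probe sets. The study's methods named EntrezGene custom files and the rank product for their own analysis. Of 31099 probe sets, 57 controls, 436 paired with several genes and 9780 paired with none were left out, which left 20826 probe sets and 14217 genes. The gene's probe set of highest mean over all arrays represented it. The 2 groups were fitted, unpaired, by lmFit and eBayes (limma 3.58.1, R 4.3.3), p-values were adjusted over the 14217 genes by the Benjamini-Hochberg method, and the adjusted threshold was 0.05. The script was tested on simulated data. The number of arrays limits the precision, and p-values measure the spread between these cultures.

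The members and lists were chosen with earlier results of these data known, and no test was run on a list as a whole. From each related list the 2 genes of smallest unadjusted p and the 1 of highest mean were named. Mmp9, Smc3 and Impg1 were added after their values were seen. For each member, the 2 genes of smallest root mean square difference in centred log2 values were named. Of 257 list entries, 229 were measured. Gene names came from the array annotation, and 14167 genes matched RefSeq by gene ID. The alternatives were a trended robust eBayes, weighted arrays, the replicate number as a block, probe sets averaged within each gene, single probe sets in place of genes, the removal of the dimmest 30% of genes, 3 further normalizations (quantile, cyclic loess, centring on array medians), a covariate for the 3' excess of beta-actin, the removal of the 2 arrays where that excess was highest, and the removal of each array in turn. Counts of groups without overlap and of kept neighbours under these settings were added after the data were seen.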

Additional observations from a re-analysis of the deposited data

How the results depend on the processing

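No member passed the adjusted threshold under any alternative run. Without control 3, 2 genes of all 14217 were past it, both higher, and the count was 0 for each other array left out. The 1 member without overlap, CNT lower, became 0 after quantile normalization or median centring, 2 after cyclic loess, without both CNT 2 and control 1 (the arrays with the highest 3' excess of beta-actin), without CNT 2 or without control 3, and 3 without CNT 1. At an unadjusted p under 0.05 the genes of all 14217 numbered 342 higher and 101 lower, and 532 and 223 with array weights, 227 and 67 without the dimmest genes, 546 and 54 with median centring, and 73 and 43 without the 2 arrays. Those lower were 203 genes with the beta-actin covariate, and 213 of 20826 probe sets with every probe set by itself.

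The log2 fold change of Bcan was 0.34 with array weights, 0.026 with median centring and 0.20 with the beta-actin covariate. Those of Ptprz1 and Papss1 were 0.0054 and 0.042 with array weights. Without the 2 arrays Tnc was at 0.026, Itgb1 at 0.011, the second Ptprz1 probe set at -0.24, the second Bcan probe set at -0.10, Cspg4 at 0.011, Papss2 at -0.0064 and Adamts5 at -0.32, and the median of the proteases was 0.023. With the covariate the second Ptprz1 probe set was at -0.032 and the second Acan probe set at -0.00298. With probe sets averaged within each gene, Tnfaip6 was at -0.00089, Vcan at -0.40 and Hapln1 at -0.85. The cause of these shifts was not tested.

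With each array left out in turn, the log2 fold change of Vcan ran from -0.40 to -0.24, that of Hapln1 from -1.26 to -0.60 and that of Tnc from -0.79 to -0.059. Signs turned for Bcan (-0.49 to 0.56), Ncan (-1.04 to 0.035), Cspg5 (-0.69 to 0.13), Ptprz1 (-0.32 to 0.12), Tnr (-0.69 to 0.12), Papss1 (-0.23 to 0.14) and Adamts4 (-0.14 to 0.33), and for other probe sets of Ptprz1 (-0.27 to 0.39), Bcan (-0.18 to 0.29), Acan (-0.016 to 0.099) and Vcan (-0.098 to 0.17). The median ran from -0.41 to -0.020 for the members and from -0.079 to 0.076 for receptors and ligands.

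The replicate numbers were not used as pairs in the main fit. The study's methods describe the replicates of each condition as culture series, and the labels give only a replicate number. Whether same-numbered cultures came from the same series is therefore not known. The deviations of same-numbered cultures correlated at -0.127, 0.361 and 0.513. Those of differently numbered cultures ran from -0.713 (CNT 3 with control 2) to 0.683 (CNT 1 with control 2). With the number as a replicate block, 0 genes passed the adjusted threshold, and 498 genes were higher and 179 lower at an unadjusted p under 0.05. The unadjusted p of Hapln1 was then 0.00512 and its adjusted p 0.854, so that 2 members, Vcan and Hapln1, were under 0.05 before adjustment and 0 after it. Hapln1 was also under 0.05 unadjusted without CNT 1 (0.0313), and Tnr without CNT 2 (0.0430).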

Other observations

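The study's methods ranked genes by the rank product, with each sample as its own origin and with EntrezGene custom probe definitions. Here the positions of the members were computed from the leading probe sets over the 9 pairs of a CNT and a control culture. The percentage of false positives was not computed, and these positions are not the study's own ranking. Among 14217 genes ranked from the most negative, Hapln1 was at position 57, Ncan at 83, Cspg5 at 357, Tnr at 526, Bcan at 629, Tnc at 680 and Vcan at 767. Ranked from the most positive, Bcan was at position 958 and Cspg4 at 1443. Bcan stood in the upper part of both rankings, with values between 10.47 and 12.57 in CNT cultures and between 11.02 and 12.59 in control cultures. Vcan, the gene without overlap, stood behind 6 members in the lower ranking.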
